A study of Rattus norvegicus with 20 samples.

Results

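The genes described are Col1a1, Col1a2, Col3a1, Fn1 and Mmp2, which were chosen by name as fibrillar collagen, fibronectin and gelatinase genes. They are 5 of the 24613 genes in the count table, and 4 of them had enough counts to be tested. The collagens encode the chains that assemble into the stiff fibrils of muscle connective tissue, type I from Col1a1 and Col1a2 and type III from Col3a1. Fn1 encodes fibronectin, a glycoprotein of the interstitial matrix that binds collagen and the integrin receptors of cells. Mmp2 encodes gelatinase A, a secreted protease that cuts type IV collagen and denatured fibrillar collagen. In skeletal muscle these transcripts come mainly from fibroblasts and related interstitial cells, and matrix accumulates around fibres when a muscle is immobilised or denervated. In whole muscle, fewer cells of a type and less RNA per cell cannot be told apart.

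RNA was sequenced from the soleus, a calf muscle made mostly of slow fibres, in 5 groups of 4 libraries from Sprague-Dawley rats. The uninjured group had no spinal cord injury (No SCI, labelled 11.5 weeks), the transection group had a complete cut of the cord at T2 (8.5 weeks after injury), and the contusion group had a 25 g-cm impact at T2 (11.5 weeks). The other two groups had the same contusion and then swam (SWIM) or walked in shallow water (SWW), from 2.5 weeks after injury on 5 days a week for 10 weeks, and were examined at 13.5 weeks. Every rat was confined to a small cage from day 4. Time therefore differs between most groups together with injury or exercise, and these cannot be told apart, except that contusion and uninjured share a labelled time, as do swimming and walking. Library totals ran from 21165832 to 39729930 counts.

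Transection library 3 stood apart, with 13837 genes detected against 15037 to 16103 in the other libraries. In the transection libraries the 50 most abundant genes took 53.7% to 60.2% of the counts, against 43.9% to 51.3% elsewhere, so values after transection depend more on how libraries are scaled. When libraries were scaled by their totals alone, all genes had a median log2 difference of -0.32 between transection and uninjured muscle, against 0.02 with the scaling used. The table holds Ensembl identifiers without symbols. The identifiers of the 5 genes came with their choice, and this pairing could not be checked in the files. For the same reason the muscle identity of the samples, markers of other cell types and other matrix genes were not examined.

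The row paired with Col1a2 (ENSRNOG00000011292) was almost empty. It held 10 counts over all 20 libraries, out of 582105298 counts in total. It was at 0 in 12 libraries, at 1 in 6 and at 2 in 2. By group it gave 2 counts in uninjured, 1 in transection, 5 in contusion, 0 in swimming and 2 in walking libraries, beside the 3 counts that a count of 0 allows in a library. Col1a1, the partner chain of the same protein, had between 1064 and 7435 counts per library. The row therefore gives no usable level of Col1a2 in any group, and it does not show that the transcript was absent. Why it is empty was not tested. It did not pass the filter on low counts, and the values that follow are for Col1a1, Col3a1, Fn1 and Mmp2.

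Mmp2 was higher in all 12 contused libraries than in all 4 uninjured ones, as were 0.933% of genes. Against uninjured muscle it was 1.46-fold higher with swimming, which passed the test, and 1.42-fold higher after contusion alone, which did not. The swimming and contusion groups differed in Mmp2 by only 0.03 on the log2 scale. Fn1 was highest with swimming and was 1.82-fold higher there than after transection. That difference passed, but the groups overlapped. The call was lost when some single libraries were left out and in a fit of these groups alone (edgeR adjusted p = 0.145). Col1a1 and Col3a1 passed in none of the comparisons, and their spread between libraries of a group was wide after transection and with swimming. Their intervals were wide too, so this does not show that they were unchanged. Across the 10 comparisons between groups, 2 of 40 tests passed (edgeR quasi-likelihood test, Benjamini-Hochberg adjusted p below 0.05 over 13398 genes). The fit gives each gene 1 spread for all 5 groups, so an interval does not show the spread of the 2 compared groups alone. Over the same comparisons the share of all genes called ran from 0% to 29.4%. The 2 calls fell in swimming against uninjured and swimming against transection, where 20.2% and 29.4% of all genes were called. They therefore do not set the members apart from other genes. Levels are given as CPM, the count of a gene scaled to a fixed library size, and each log2 difference is first group minus second.

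**Figure D1:**
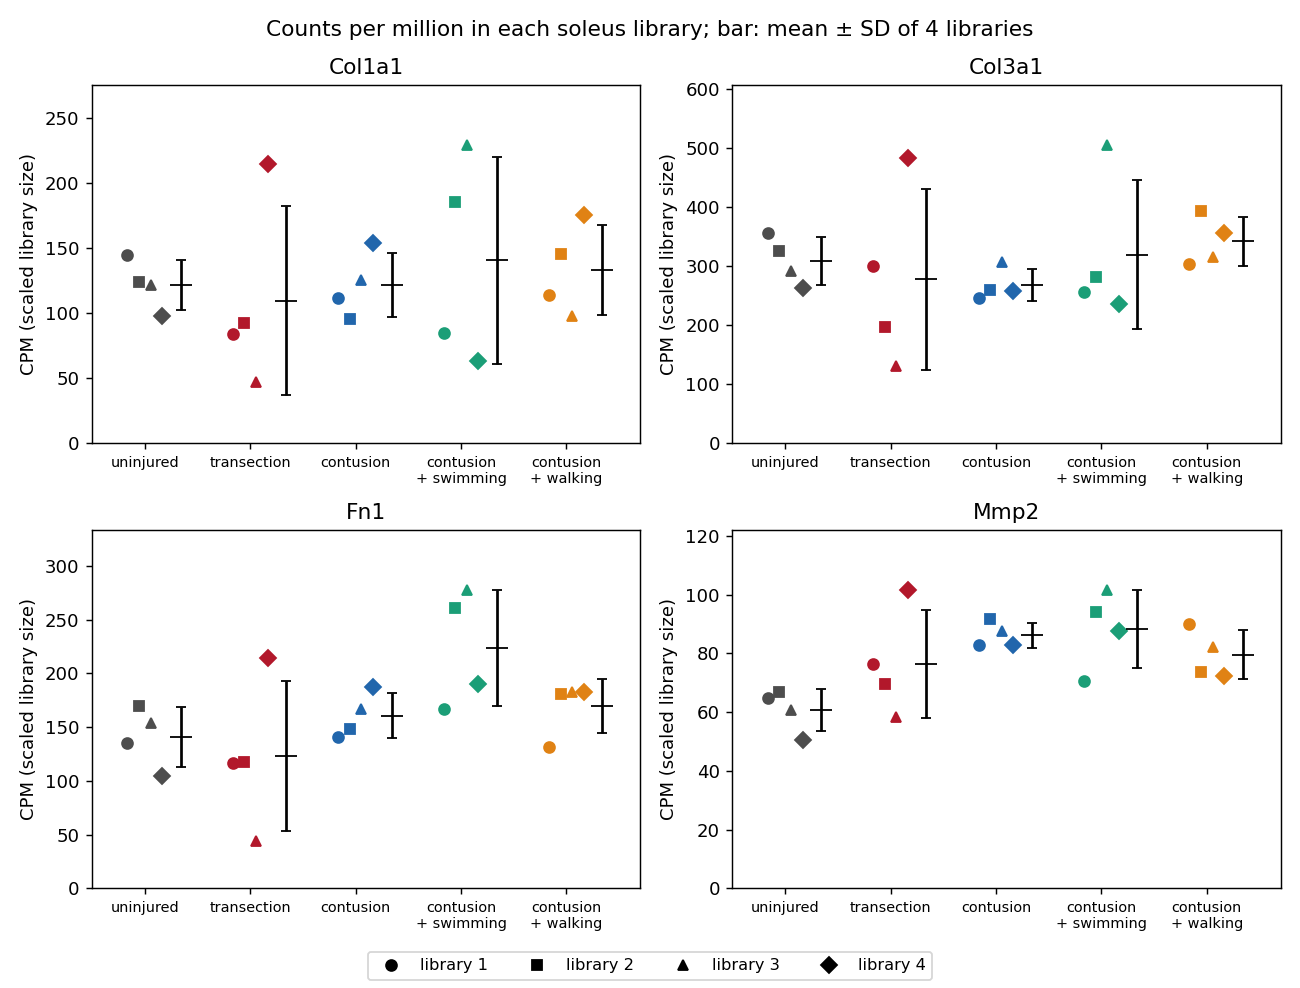
Level of 4 matrix genes in each of the 20 soleus libraries, in CPM on a linear axis from 0; symbols are libraries 1 to 4 of each group, and the bar beside them is the mean ± SD of the 4. All contused libraries hold more Mmp2 than the highest uninjured library (66.8 CPM), and Col1a1 runs from 46.9 to 214 CPM within the transection group.

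Mmp2 (ENSRNOG00000016695) was at 64.7, 66.8, 60.7 and 50.6 CPM in uninjured libraries 1 to 4. It was at 82.9, 91.7, 87.6 and 82.8 CPM after contusion, and at 76.3, 69.7, 58.3 and 102 CPM after transection. With swimming it was at 70.5, 94.1, 101 and 87.5 CPM, and with walking at 90.2, 73.6, 82.2 and 72.2 CPM. No contused library, exercised or not, fell to the uninjured range, whereas transection library 3 did. In order of the group means Mmp2 stood at 60.7 ± 7.19 CPM in uninjured, 76.5 ± 18.4 in transection, 79.5 ± 8.35 in walking, 86.3 ± 4.28 in contusion and 88.4 ± 13.2 in swimming muscle (SD, n = 4 each). No pair of neighbours in this order differed by the test.

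With swimming, Mmp2 rose by 0.54 on the log2 scale against uninjured muscle (SE 0.15, 95% interval 0.23 to 0.85, edgeR adjusted p = 0.0152), higher in 4 of 4 libraries than every uninjured one. This was 1 of 4 tested members called, where 20.2% of all genes were called, 10.1% as higher, and in 11.5% of genes all swimming libraries lay above all uninjured ones. The call was lost without uninjured library 4, the lowest in Mmp2, at a log2 difference of 0.46 (adjusted p = 0.0631), and with voom and sample weights the difference was 0.36 (adjusted p = 0.0452).

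The other injured groups gave Mmp2 differences in the same direction that did not pass. After contusion alone the log2 difference from uninjured was 0.51 (SE 0.15, 95% interval 0.20 to 0.81, edgeR adjusted p = 0.214). The 2 groups did not overlap, as in 3.58% of genes in the higher direction. Across all genes contusion against uninjured gave 0 calls, or 0%, with edgeR, while 10% had an unadjusted p under 0.05. Among the 4 members 0 were called with edgeR, DESeq2 or voom, and 1, Mmp2, had an unadjusted p under 0.05.

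With walking the Mmp2 difference from uninjured was 0.39 (95% interval 0.08 to 0.70, edgeR adjusted p = 0.231). These groups did not overlap either, as in 4.41% of genes, and 0 of 4 members were called with any of the 3 tools where 0.493% of genes were called with edgeR. Of the members 1, Mmp2, had an unadjusted p under 0.05, as had 13.8% of genes.

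After transection the Mmp2 difference from uninjured was 0.33 (95% interval 0.03 to 0.64, edgeR adjusted p = 0.0961). Here 28.3% of all genes were called, and 0 of 4 members with edgeR, DESeq2 or voom, while 1, Mmp2, had an unadjusted p under 0.05, as had 39.9% of genes. Mmp2 passed without transection library 3 (log2 difference 0.42, adjusted p = 0.0378). With library totals as the only scaling its difference was 0.02 (adjusted p = 0.944) while the median of all genes was -0.32.

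The 3 contused groups were then pooled against uninjured muscle, a comparison chosen after seeing that all 12 contused libraries lay higher in Mmp2. Its p therefore restates that separation and is no further support for it. Mmp2 differed by 0.48 on the log2 scale (SE 0.12, 95% interval 0.22 to 0.74, edgeR adjusted p = 0.0241), a 1.39-fold difference, higher in 12 of 12 libraries than every uninjured one. As background, 1 of 4 members and 7.32% of genes were called, 2.71% of genes as higher, and all contused libraries lay above all uninjured ones in 0.933% of genes. Without uninjured library 1, 3 or 4 the difference was 0.51, 0.48 and 0.40 and did not pass (adjusted p = 0.0605, 0.0526 and 0.150). With library totals only it was 0.46 (0.106). The other members differed by 0.11 (Col1a1), -0.0046 (Col3a1) and 0.38 (Fn1) on the log2 scale and did not pass.

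Among the injured groups no Mmp2 difference passed with all libraries. The largest was swimming against transection, at 0.21 on the log2 scale (95% interval -0.10 to 0.51, edgeR adjusted p = 0.311). It passed without transection library 4 (0.37, adjusted p = 0.0459) and with library totals only (0.59, adjusted p = 0.0238), a scaling that put the median of all genes at 0.42. Swimming and contusion differed by 0.03 on the log2 scale, with a 95% interval of -0.27 to 0.34, and walking and contusion by -0.12, with an interval of -0.42 to 0.19. Transection and contusion differed by -0.17, with an interval of -0.48 to 0.14. For swimming against contusion the interval in folds ran from 0.828 to 1.27.

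**Figure D2:**
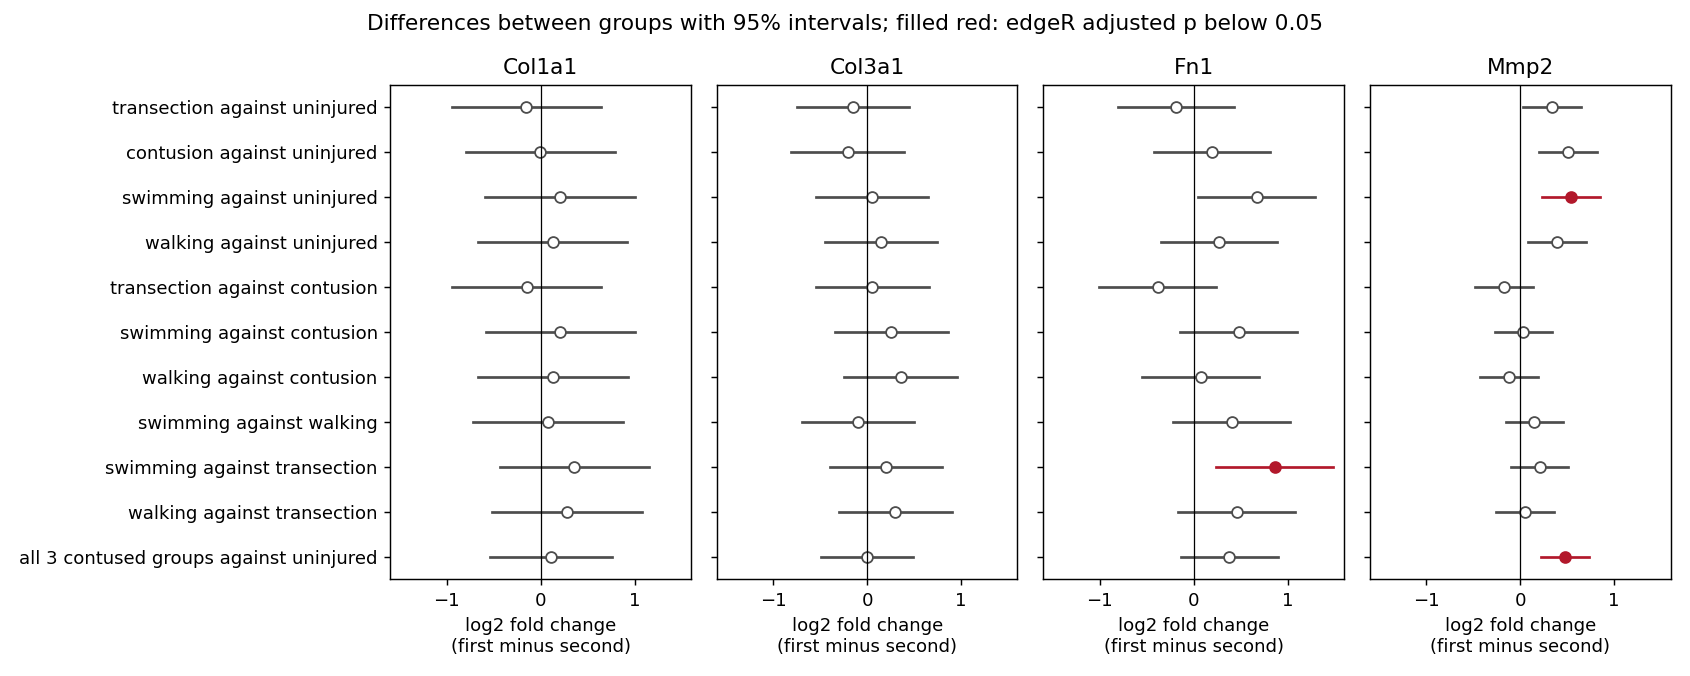
Log2 fold change of Col1a1, Col3a1, Fn1 and Mmp2 in the 10 comparisons between groups and in the 3 contused groups together against uninjured, with 95% intervals; filled red points passed the edgeR test at an adjusted p below 0.05. Between single groups the called differences are Mmp2 with swimming against uninjured (0.54) and Fn1 with swimming against transection (0.86); the pooled contrast, called for Mmp2 (0.48), was chosen after its separation had been seen.

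Fn1 (ENSRNOG00000014288) was at 135, 169, 154 and 104 CPM in uninjured libraries 1 to 4 and at 140, 149, 167 and 187 CPM after contusion. After transection it was at 117, 118, 43.8 and 215 CPM. With swimming it was at 167, 261, 278 and 190 CPM, and with walking at 132, 181, 183 and 182 CPM. The swimming libraries held the 2 highest values of the series, and transection library 3 the lowest. Group means ran from 123 ± 70 CPM after transection through 141 ± 28.1 in uninjured, 161 ± 20.9 in contusion and 169 ± 25.2 in walking to 224 ± 53.9 in swimming muscle (SD, n = 4 each), and no neighbours in this order differed by the test.

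Fn1 was higher with swimming than after transection by 0.86 on the log2 scale (SE 0.30, 95% interval 0.24 to 1.49, edgeR adjusted p = 0.0350). The groups overlapped, and 2 of 4 swimming libraries lay above every transection library. Of the 4 members 1 was called, where 29.4% of all genes were called and 15.6% were higher. The call was lost without any of 5 single libraries. Without transection library 1, 2 or 3 the difference was 0.83, 0.83 and 0.57 (adjusted p = 0.0741, 0.0815 and 0.0815), and without swimming library 2 or 3 it was 0.78 and 0.74 (adjusted p = 0.0709 and 0.0952). Without transection library 4 it was 1.27 (adjusted p = 0.00194). Without transection library 3 and swimming library 2 together the difference was 0.49 (adjusted p = 0.147), and in a fit of the compared groups alone it was 0.88 (0.145).

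Against uninjured muscle the Fn1 difference with swimming was 0.67 (95% interval 0.05 to 1.29, edgeR adjusted p = 0.115), and 3 of 4 swimming libraries lay above every uninjured one. It passed without transection library 3 (log2 difference 0.64, adjusted p = 0.0340). That library is in neither group and enters only through the filter, scaling and spread that all libraries share. In a fit of swimming and uninjured alone the difference was 0.67 (edgeR adjusted p = 0.0559). Against contusion the swimming difference was 0.48 (95% interval -0.14 to 1.1, adjusted p = 0.354) and against walking 0.40 (-0.22 to 1.02, adjusted p = 0.520). After contusion, walking and transection Fn1 differed from uninjured by 0.19, 0.27 and -0.19 on the log2 scale and did not pass. Without transection library 4 Fn1 passed as lower after transection than after contusion (-0.81, edgeR adjusted p = 0.0472) and higher with walking than after transection (0.88, adjusted p = 0.0284), against -0.38 (0.420) and 0.46 (0.300) with all libraries.

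Col1a1 (ENSRNOG00000003897), the main chain of type I collagen, was at 144, 123, 121 and 97.6 CPM in uninjured libraries 1 to 4 and at 112, 95.1, 125 and 154 CPM after contusion. After transection it was at 84.2, 92.2, 46.9 and 214 CPM. With swimming it was at 84.7, 185, 229 and 63.4 CPM, and with walking at 114, 145, 97.4 and 175 CPM. Both the lowest and the second highest value of the series came from transection libraries, and the swimming libraries fell into a low and a high pair. Group means ran from 109 ± 72.6 CPM (transection) through 121 ± 24.8 (contusion), 122 ± 19.2 (uninjured) and 133 ± 34.4 (walking) to 141 ± 79.3 (swimming), all SD with n = 4.

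No difference in Col1a1 between groups exceeded this spread. Its log2 difference from uninjured was -0.15 after transection (95% interval -0.95 to 0.64, edgeR adjusted p = 0.804) and -0.0027 after contusion (-0.80 to 0.79, 0.999). With swimming it was 0.21 (-0.59 to 1.00, adjusted p = 0.729) and with walking 0.13 (-0.67 to 0.92, 0.922). The largest difference between injured groups, swimming against transection, was 0.36 (-0.44 to 1.16, adjusted p = 0.515). For transection against uninjured the interval in folds ran from 0.519 to 1.56, a range that includes both lower and higher levels after transection.

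Col3a1 (ENSRNOG00000003357), the chain of type III collagen, was at 357, 326, 291 and 263 CPM in uninjured libraries 1 to 4 and at 246, 259, 307 and 257 CPM after contusion. After transection it was at 300, 198, 131 and 484 CPM. With swimming it was at 257, 281, 506 and 235 CPM, and with walking at 303, 393, 315 and 357 CPM. All groups overlapped, and swimming library 3 and transection library 4 lay far above the others. Group means ran from 268 ± 27.1 CPM (contusion) through 278 ± 154 (transection), 309 ± 41.0 (uninjured) and 320 ± 126 (swimming) to 342 ± 41.0 (walking), all SD with n = 4.

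Col3a1 passed in no comparison. Its log2 difference from uninjured was -0.15 after transection (95% interval -0.75 to 0.44, edgeR adjusted p = 0.732), -0.21 after contusion (-0.81 to 0.39, 0.874), 0.05 with swimming (-0.55 to 0.65, 0.919) and 0.15 with walking (-0.45 to 0.74, 0.872). With walking against contusion it was 0.36 (-0.24 to 0.95, adjusted p = 0.9997), with 3 of 4 walking libraries above every contusion library. This interval also carries the spread of the other groups. The SD of Col3a1 on the log2 scale was 0.17 in walking and 0.14 in contusion, against 0.81 in transection muscle. In a fit of walking and contusion alone the difference was 0.36 (edgeR adjusted p = 0.949). The directions of the small differences of the collagens and Fn1 after transection were not stable. Without transection library 3, Col1a1, Col3a1 and Fn1 differed from uninjured after transection by 0.081, 0.064 and 0.071 on the log2 scale. With all libraries these differences were -0.15, -0.15 and -0.19.

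In 5 further comparisons 0 of 4 members were called by edgeR, DESeq2 or voom, and 0 had an unadjusted p under 0.05 with edgeR. They were transection against contusion, where edgeR called 15.5% of all genes and 30% had an unadjusted p under 0.05, swimming against contusion (4.55% and 22.7%) and walking against contusion (0% and 3.28%). The others were swimming against walking (0.00746% and 15.4%) and walking against transection (20.1% and 33.1%). The members' median log2 difference was -0.16, 0.23, 0.10, 0.12 and 0.29 in these comparisons, while the median of all genes lay between 0.00072 and 0.013. Against uninjured the members' median was -0.15 after transection, 0.10 after contusion, 0.37 with swimming and 0.21 with walking, beside medians of all genes of 0.02, 0.01, 0.04 and 0.02. These comparisons share their control libraries.

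The spread between libraries of a group was larger than counting error, and rats and library preparation cannot be told apart in it. Counting error alone gives a coefficient of variation of at most 3.18% for any tested member in any library, at the 992 counts of Fn1 in transection library 3. The measured coefficient of variation of Col1a1 was 66.3% after transection and 56.5% with swimming, against 15.7% in uninjured, 20.4% in contusion and 25.8% in walking muscle. On the log2 scale the SD of Col1a1 was 0.90 after transection and 0.89 with swimming, above that of 91.3% and 93.8% of all genes in the same libraries, whereas the 0.23 of uninjured muscle was above 49.2%. Col3a1 and Fn1 after transection had an SD of 0.81 and 0.95, above 89.5% and 92.1% of genes. Mmp2 varied least, with a coefficient of variation from 4.96% in contusion to 24.0% in transection muscle. The spread was not tested between groups.

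Within a group, the same libraries were often high or low in all 4 genes. Transection library 3 was the lowest of its group in 4 of 4 members and transection library 4 the highest in 4 of 4. Uninjured library 4 was the lowest of its group in 4 of 4, and swimming library 3 the highest in 4 of 4. In the contusion and walking groups no library led or trailed in more than 2 members.

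**Figure D3:**
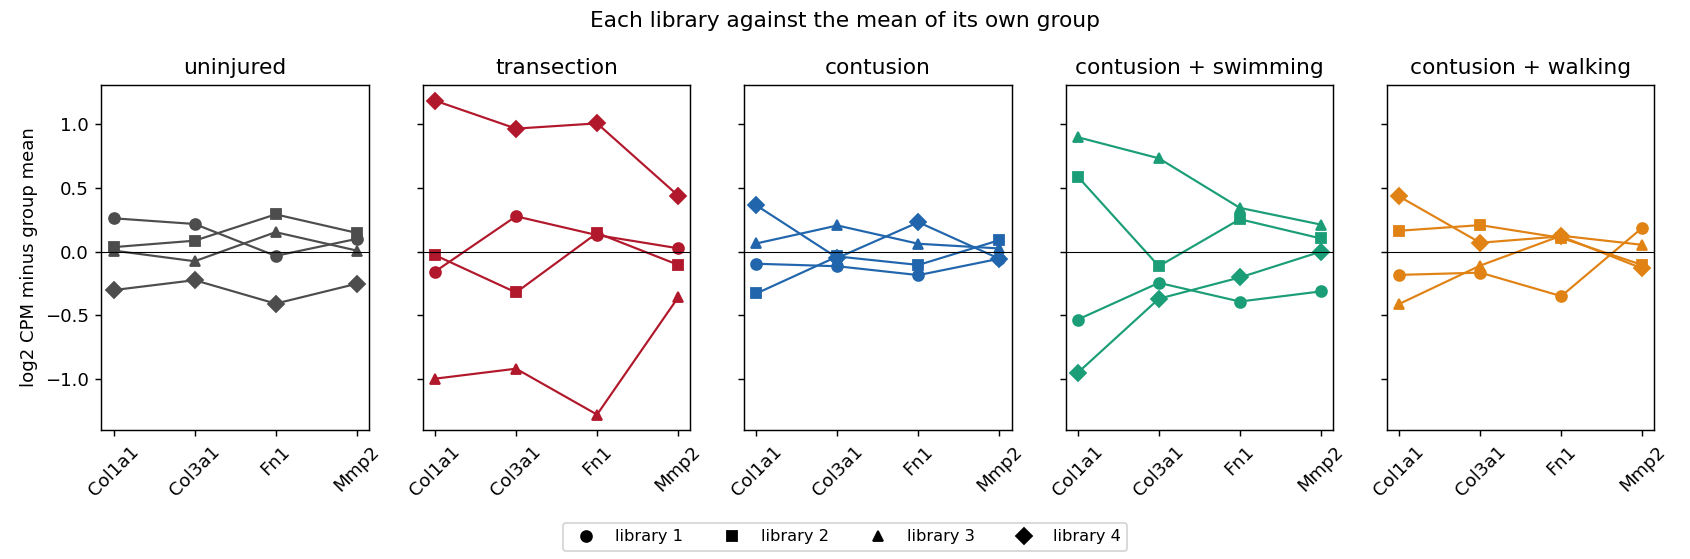
Log2 CPM of 4 matrix genes in each library minus the mean of its own group, with a line for each library. Transection library 4 lies at 1.19 in Col1a1 and 0.44 in Mmp2, and transection library 3 at -1.28 in Fn1 and -0.36 in Mmp2.

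After the group means were subtracted, the deviations of Col1a1 and Col3a1 over the 20 libraries correlated at r = 0.83 (Spearman rho 0.71), those of Col1a1 and Fn1 at 0.81 (0.76) and those of Col3a1 and Fn1 at 0.84 (0.62). Mmp2 gave r = 0.64 with Col1a1, 0.75 with Col3a1 and 0.75 with Fn1 (rho 0.44, 0.57 and 0.57). These are descriptions, with no p, since the libraries share a scaling step and the genes were chosen as related. Without transection libraries 3 and 4, the libraries farthest from the median, r among Col1a1, Col3a1 and Fn1 was 0.55 to 0.68, and r with Mmp2 was 0.34 to 0.46. The median r of Col1a1 with all other genes was 0.0064, and Col3a1 and Fn1 ranked 8 and 12 of 13397 in likeness to it, while Mmp2 ranked 189.

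The genes whose pattern over the 20 libraries was most like the mean of the 4 members were ENSRNOG00000058156 (r = 0.857) and ENSRNOG00000001249 (r = 0.857), beside a median r of 0.02 over all genes. The first stood at 5.37 ± 0.529 CPM in uninjured and 5.30 ± 1.74 in transection muscle, and the second at 71.8 ± 11.9 in uninjured and 105 ± 42.0 CPM in swimming muscle (SD, n = 4 each). The count table gives them no names.

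Ratios of counts within a library do not depend on library scaling, and were used to ask whether the genes shifted against Col1a1. They are not per transcript length, so only differences between groups can be read. The log2 ratio of Mmp2 to Col1a1 was -0.997 ± 0.117 in uninjured muscle, -0.47 ± 0.344 after contusion, -0.33 ± 0.579 after transection, -0.49 ± 0.746 with swimming and -0.71 ± 0.499 with walking (SD, n = 4 each). Its mean was higher than in uninjured muscle in each of the other groups, and each of them overlapped the uninjured range. The largest difference was transection against uninjured, at 0.67 (exact two-sided permutation p = 0.114, n = 4 against 4, adjusted p = 0.795 over 30 tests). The smallest p was for contusion against uninjured, a log2 difference of 0.53 (exact two-sided permutation p = 0.0571, adjusted p = 0.795).

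The log2 ratio of Fn1 to Col1a1 was 0.84 ± 0.579 with swimming against 0.20 ± 0.249 in uninjured and 0.18 ± 0.274 in transection muscle (exact permutation p = 0.114 for each difference, adjusted p = 0.795). The log2 ratio of Col3a1 to Col1a1 was 1.35 ± 0.0769 in uninjured muscle and between 1.16 and 1.40 on average in the other groups, where its SD was 0.275 to 0.562. None of the 30 ratio tests passed. The smallest p that 4 against 4 libraries allow is 0.0286, so no single ratio could pass after adjustment over 30 tests. The lack of a pass therefore does not show that the ratios were alike between groups. Together the 5 members took 0.0671 ± 0.0114% of all counts in uninjured, 0.0515 ± 0.0329% in transection, 0.0627 ± 0.00633% in contusion, 0.0854 ± 0.0239% in swimming and 0.0750 ± 0.00680% in walking libraries (SD, n = 4 each). The smallest exact permutation p among the 10 comparisons of this share was 0.0571, for walking against contusion (adjusted p = 0.428). Here too no single comparison could pass after adjustment, so the lack of a pass does not show equal shares.

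**Figure D4:**
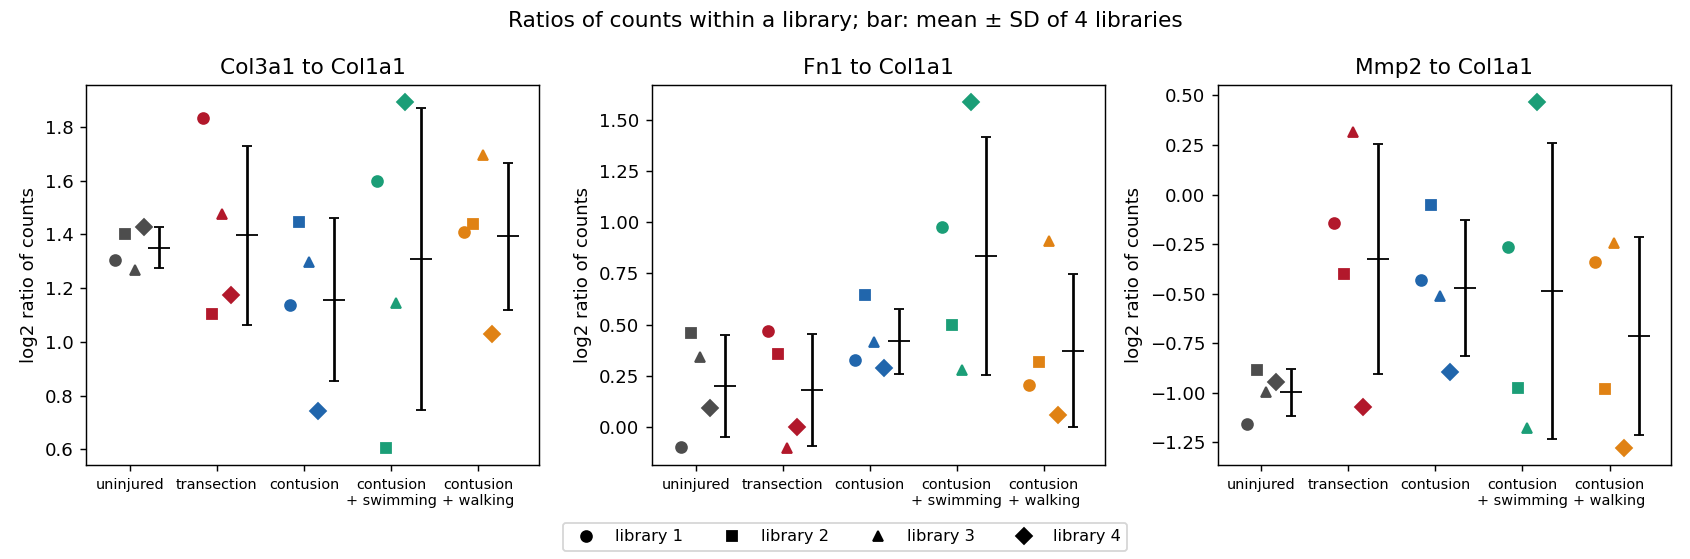
Log2 ratio of the counts of Col3a1, Fn1 and Mmp2 to those of Col1a1 in each library, with the mean ± SD of the 4 libraries of a group. Uninjured libraries lie close together for Col3a1 (1.27 to 1.43) and Mmp2 (-1.16 to -0.88), and the swimming libraries are spread from 0.60 to 1.89 and from -1.18 to 0.47.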

How the data were processed

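Soleus RNA of 20 libraries was poly-A selected and made into stranded libraries, per the labels' protocols. The deposited values were raw counts per Ensembl gene. The submitters' processing notes list FastQC 0.10.1, HTSeq and rn6; the aligner, annotation and strand setting are not given in the sources used here, so reads of overlapping genes may have been shared or lost. Muscle was taken from each animal, per the series' design. Within-group pairs of libraries varied beyond counting error (chi-square per degree of freedom 26.5 to 517).

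The members, lists, tests and alternatives were chosen with earlier results of these data known. Group means were fitted to all 20 libraries (15 residual degrees of freedom) with edgeR 4.0.16 under R 4.3.3, using its quasi-likelihood F test after scaling by the trimmed mean of M values. The filter filterByExpr with a minimum count of 10 left 13398 genes, and a call was a Benjamini-Hochberg adjusted p below 0.05 over these. Fold changes used a prior count of 0.125, log2 CPM a prior count of 2, and the SE was the log2 fold change divided by the root of F. For ratios and shares an exact permutation test (two-sided) was used. Named genes were the members and the 2 genes most like their mean pattern. Symbols were found for 0 of 24613 identifiers in the RefSeq gene table, so 20 lists of matrix, signalling and cell type marker genes could not be applied. The ratio of Col1a1 to Col1a2 was not computed because that row was nearly empty.

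Alternatives were DESeq2 1.42.0, limma 3.58.1 (voom, sample weights), scaling by median ratios or by totals alone, omitting the low-count filter, requiring a mean CPM of 1 or more, a block for the replicate number, fitting the compared groups alone, and leaving libraries out. Figures used matplotlib 3.10.9.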

Additional observations from a re-analysis of the deposited data

Results flagged for a closer look

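Values were examined for a library far from the other 3 of its group. They were the CPM of the tested members, the ratios to Col1a1 and the share of counts, 40 groups of 4 in all, where chance gives about 2 (1 in 20 groups), and 2 were found. Col3a1 stood at 506 CPM in swimming library 3, the next highest being 281 CPM. Fn1 stood at 132 CPM in walking library 1, and the other walking libraries lay between 181 and 183 CPM. Fn1 also differed between swimming after contusion and transection by the direct test, with a log2 difference of 0.86.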

How the results depend on the processing

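Each member was recomputed in 11 comparisons under 9 alternatives and with each of the 20 libraries left out. Of 1276 such values, 1205 kept their direction and their side of the threshold, 12 lost a call, 7 gained a call and 52 changed sign. None of the changes of sign touched a called value or was called itself, and no setting called Col1a1 or Col3a1. The 360 values of the ratios and shares under medians or with a library left out moved by less than the spread between libraries. Leaving a library out of a group of 4 cannot move its mean by as much as this spread. For those values the outcome was therefore fixed in advance and says nothing on how steady the ratios are.

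The number of members called moved as follows. With library totals only it was 2 for swimming against transection and 0 for the contused groups together against uninjured. It was 0 for swimming against transection with the compared groups alone. Without transection library 3 and swimming library 2 it was also 0 there, and 1 for transection against uninjured. With totals only, calls over all genes likewise rose for swimming against transection and fell for the contused groups together. For swimming against transection they also fell in the other fits named. These changes therefore do not set the members apart from other genes. For transection against uninjured, calls over all genes hardly changed without those libraries. With a library left out, the number of members called ran from 0 to 2 for swimming against uninjured and against transection. It ran from 0 to 1 for transection against uninjured, transection against contusion, walking against transection and the contused groups together. Deviations of libraries from different groups with the same replicate number correlated between -0.29 and 0.43 (median 0.0033) over 40 pairs. With different numbers they correlated between -0.38 and 0.33 (median -0.014) over 120 pairs. The medians were alike, and whether some libraries of a number share a batch was not tested. With the replicate number as a block no call of a member changed: Mmp2 with swimming against uninjured was 0.54 (adjusted p = 0.0277) and Fn1 with swimming against transection 0.89 (0.0402).

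Signs changed for uncalled log2 differences of up to 0.36 with all libraries (Col1a1, swimming against transection), and the cause was not tested. With library totals only, Col3a1 after transection against contusion was -0.11. At a mean CPM of at least 1, Col1a1 after contusion was 0.00032 and Col3a1 in the contused groups together 0.0032 against uninjured. With voom, swimming gave Col1a1 -0.28 and Col3a1 -0.14 against uninjured, Col1a1 -0.19 and Mmp2 -0.12 against contusion, and Col1a1 -0.32 against walking; the contused groups together gave Col1a1 -0.11. Without transection library 3 and swimming library 2, transection gave Col1a1 0.081, Col3a1 0.064 and Fn1 0.071 against uninjured and Col1a1 0.092 against contusion. The same setting gave Mmp2 -0.018 for swimming against contusion and Col1a1 -0.10 and -0.062 for swimming against walking and transection. It gave Mmp2 -0.052 for walking against transection.

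With single libraries left out, Col1a1 ran from -0.73 to 0.081 for transection, -0.16 to 0.10 for contusion, -0.14 to 0.45 for swimming, -0.033 to 0.25 for walking and -0.0039 to 0.20 for the contused groups together, all against uninjured. It ran from -0.72 to 0.092 for transection, -0.13 to 0.48 for swimming and -0.030 to 0.28 for walking against contusion, and from -0.26 to 0.34 for swimming against walking. Col3a1 ran from -0.58 to 0.064 (transection), -0.26 to 0.17 (swimming) and -0.11 to 0.070 (contused groups together) against uninjured. It ran from -0.37 to 0.28 (transection) and -0.055 to 0.40 (swimming) against contusion, from -0.41 to 0.039 for swimming against walking and from -0.11 to 0.61 for swimming against transection. Fn1 ran from -0.62 to 0.071 for transection against uninjured. Mmp2 ran from -0.039 to 0.15 for swimming against contusion and from -0.052 to 0.23 for walking against transection.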
